A study of Homo sapiens with 8 samples.

Results

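The response of PLC5 cells to GSK343 was described from 4 of the 8 arrays of a study of 2 human liver cancer lines. The members were chosen by their labels alone, as the 2 arrays of PLC5 cells exposed to 10 µM GSK343 and the 2 arrays of PLC5 control cells. PLC5 is a short name for PLC/PRF/5, an established line from a human hepatocellular carcinoma that carries integrated hepatitis B virus DNA. The other 4 arrays held the same pair of groups for HepG2, an established human liver tumour line, and were used for the estimate of the spread and for a comparison of the lines. Each group was 1 line in medium with heat-inactivated fetal bovine serum, with no genetic change, and total RNA was measured. An exposure of 16 h is given in the titles and the study's design, but 6 h in the treatment protocol, so the time is uncertain. The labels do not say whether the control cells received the solvent of the compound, so solvent and GSK343 cannot be told apart. Nor do they name separate cultures for the 2 arrays of a group, and the spread behind the p-values could then be technical.

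GSK343 is a small-molecule inhibitor of EZH2, the enzyme of the Polycomb repressive complex PRC2 that methylates lysine 27 of histone H3 and thereby helps to keep developmental genes silent. Liver cells make cholesterol and fatty acids under the control of the SREBP transcription factors, which leave the endoplasmic reticulum and switch on the genes of these pathways when membrane sterol is low. A separate program, the integrated stress response, raises the transcription factor ATF4 when amino acids or protein folding fail, and ATF4 with its partners switches on genes of amino acid supply. Both programs are named here because their genes hold many of the largest changes.

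Levels are intensities after quantile normalization over the 8 arrays, which gives each array the same distribution of values. Changes are differences of log2 intensity, treated minus control, with the standard error of the limma fit and 2 arrays in each group. A gene is called when its p-value, adjusted over all 31741 probes by the Benjamini-Hochberg method, is under 0.05, and "rose" and "fell" are used only of called genes. A gene is called bright when its mean intensity was above 64 in both PLC5 groups, and 14927 of 18336 measured genes were bright. The p-values below come from limma's moderated test on all 8 arrays.

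The 4 PLC5 arrays were of similar brightness before normalization, with medians from 415 to 552. The 2 controls correlated with r = 0.989 over all probes, the 2 treated arrays with r = 0.989, and each control with each treated array with r = 0.987. Before normalization the mean of the array medians was higher by 0.19 (log2) in the treated PLC5 arrays than in the controls. After normalization the median change over all probes was -0.01, so changes are relative to that shift in brightness. The median difference between the 2 arrays of a group was 0.324 (log2) for dim genes and 0.185 for bright ones. Of 15 markers of hepatocyte-derived lines, 12 were measured, all were bright in PLC5 and 10 had a mean level above 1000, among them SERPINA1 with levels of 97289 and 107564 in the controls. Their summed level was 581006 and 621527 in the controls and 604700 and 558304 after treatment. Albumin, the defining plasma protein of hepatocytes, was low in PLC5, with ALB levels of 706 and 786 in the controls and 677 and 657 after treatment, against 140644 and 150765 in the HepG2 controls. Of markers of other cell types, 0 of 10 endothelial, 3 of 11 immune, 2 of 10 stellate and 4 of 8 bile duct markers lay above 1000, and 0 of these marker genes were called, while 3 were higher and 1 was lower before adjustment (p under 0.05). The stellate markers summed to 3570 and 5265 in the controls and 5235 and 5769 after treatment, and their part in the results below was not tested.

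In PLC5 196 genes were called after GSK343, of which 153 rose and 43 fell, or 0.834% and 0.235% of the genes measured. Among bright genes 148 rose and 41 fell, and the change was at least 2-fold for 60 of the rises and 8 of the falls. At an unadjusted p below 0.05, 1444 genes were higher and 1504 lower. In every called gene both treated arrays lay beyond both controls, which was also true of 22.8% of all genes upward and 22.8% downward. The split between rises and falls depended on the scaling, with 100 higher and 209 lower when each array was centred on its median, and 96 higher and 7 lower with no normalization. Of the 189 bright genes called, 53 had another bright probe. For 50 of these every bright probe had the same sign, and for 26 another probe was called in the same direction. The others were MBP, NCR3LG1 and SPTBN1, named after their values were seen, where another probe had the opposite sign. Leaving out 1 of the 8 arrays at a time, which takes 1 of the 4 residual degrees of freedom, 54 bright genes stayed called each time, 49 of them rises and 5 falls.

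**Figure D1:**
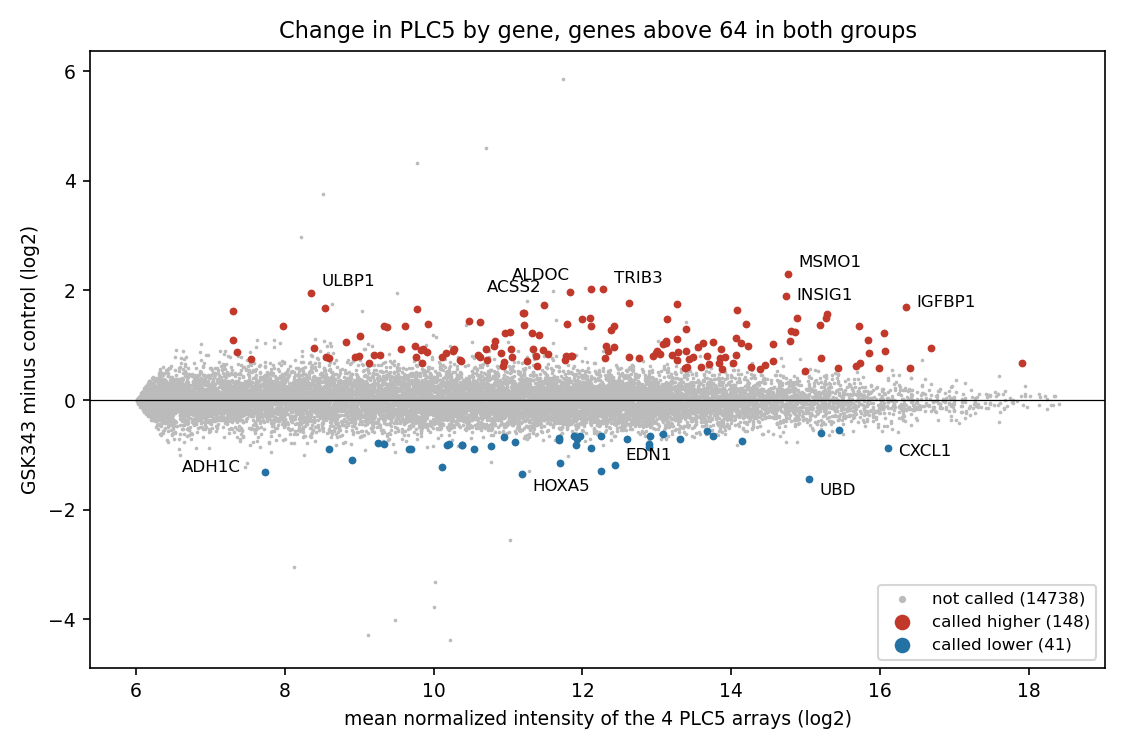
Each point is 1 of the 14927 bright genes, with the mean log2 intensity of the 4 PLC5 arrays on the horizontal axis and the log2 difference, GSK343 minus control, on the vertical axis. Red points are the 148 genes called higher and blue points the 41 called lower, with MSMO1 at 2.31 and UBD at -1.43, and grey points are bright genes that were not called.

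The cholesterol synthesis pathway rose almost from end to end. Of 18 measured enzymes 17 rose and 0 fell, and all 18 had both treated arrays above both controls, against 22.8% of all genes. The median change was 1.25 (log2) against -0.01 over all genes. Without 1 array the number of enzymes called was 12 to 16, lowest without the second control or the second treated PLC5 array. It was 10 with the replicate block and 9 with no variance trend. At the entry of the pathway, HMGCS1, which makes HMG-CoA, had levels of 24008 and 22966 in the controls and 67837 and 64942 after GSK343. IDI1, the isomerase that supplies activated isoprene units, had 17330 and 18560 in the controls and 52775 and 48995 after treatment. The treated arrays of both genes lay far above the controls, with rises of 1.50 ± 0.11 (adjusted p = 0.000797) and 1.50 ± 0.11 (adjusted p = 0.000664). FDPS, which joins isoprene units to farnesyl diphosphate, went from 7744 and 6048 to 17605 and 16244 and rose by 1.31 ± 0.13. FDFT1, the squalene synthase and the first enzyme committed to sterols, went from 23966 and 22624 to 55146 and 65903 and rose by 1.37 ± 0.10.

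After squalene, the enzymes that trim lanosterol to cholesterol rose in the same way. CYP51A1, the lanosterol demethylase, had levels of 9935 and 13690 in the controls and 31355 and 29401 after treatment. Its controls differed more from each other than its treated arrays did, and the rise of 1.38 ± 0.15 was called (adjusted p = 0.00366). MSMO1, the oxidase that removes methyl groups from the sterol ring, went from 12844 and 12143 to 61197 and 62535. This 4.95-fold rise (2.31 ± 0.10 in log2, adjusted p = 6.2e-05) was the largest among bright called genes of PLC5, and another probe of MSMO1 gave 1.81 ± 0.16. HSD17B7, a sterol ketone reductase, rose by 1.49 ± 0.12, from 2631 and 2603 to 6972 and 7764. DHCR7, whose reaction yields cholesterol itself, had 24474 and 22142 in the controls and 63869 and 75092 after treatment and rose by 1.57 ± 0.11 (adjusted p = 0.00063). The other 9 called enzymes rose by 0.78 to 1.26, with MVK at the low end and ACAT2, the thiolase that feeds the pathway, at the high end. PMVK, which adds a phosphate between the steps of MVK and MVD, gave 0.29 ± 0.16 (adjusted p = 0.454) and was the only enzyme of the list not called. MVK, ACAT2 and PMVK were named after their values were seen. The call of MVK was lost without each of the 8 arrays (adjusted p as high as 0.121 without the second treated PLC5 array). Calls were also lost for SC5D without 4 arrays, for EBP, MVD and TM7SF2 without 3 each and for LSS without 1, with a highest adjusted p from 0.055 for LSS without the second treated PLC5 array to 0.0974 for MVD without the first PLC5 control array. These enzymes were likewise named for their lost calls, after their values were seen. In HepG2 18 of the 18 measured enzymes were called, and limma's test of the difference between the lines called no member of the list. The difference, PLC5 minus HepG2, was 0.70 ± 0.14 for MSMO1 (adjusted p = 0.071) and -0.07 ± 0.16 for HMGCS1 (adjusted p = 0.849). Lack of a call does not show equal change.

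Among 11 measured genes of SREBP control, 4 rose and 0 fell, with a median of 0.49, or 0.22 over the 10 bright ones. Without 1 array 1 to 3 were called. INSIG1, which holds the SREBP escort protein in the endoplasmic reticulum and is itself an SREBP target, had levels of 15648 and 12945 in the controls and 43001 and 65152 after treatment. The treated arrays differed from each other but both lay well above the controls, and the rise was 1.89 ± 0.20 (adjusted p = 0.00336), with 2.49 ± 0.16 on another probe. INSIG2, its paralog, rose by 0.88 ± 0.13, STARD4, a carrier of cholesterol between membranes, by 1.38 ± 0.16 and TMEM97, a regulator of sterol transport, by 0.59 ± 0.09. INSIG2, STARD4 and TMEM97 lost their calls without at least 1 array, STARD4 only without the first treated PLC5 array (adjusted p = 0.0626), INSIG2 with adjusted p reaching 0.118 without the second treated PLC5 array and TMEM97 reaching 0.148 without the second treated PLC5 array. The transcription factors themselves were not called, and SREBF2 gave 0.49 ± 0.15 (adjusted p = 0.182) and SREBF1 -0.05 ± 0.10 (adjusted p = 0.886), both named after their values were seen. The sterol regulatory element, searched as TCACNCCAC on both strands, was found in 0 of 15 promoters of the cholesterol enzymes and 1 of 11 of the control genes, that of SREBF2, against 1.15% of all 27305 promoters of the RefSeq table described below. No match says only that these letters are not in the window of 250 bases before to 50 after the start.

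Fatty acid synthesis rose in part, with 6 of 18 measured genes higher, 0 lower, and a median of 0.47. ACSS2, which makes acetyl-CoA from acetate in the cytosol, had levels of 1836 and 1836 in the controls and 7202 and 7157 after treatment. The arrays of each group were nearly equal, and the rise was 3.91-fold (1.97 ± 0.18, adjusted p = 0.00145), with 2.06 ± 0.19 on another probe. ACLY, which makes acetyl-CoA from citrate, rose by 0.85 ± 0.09, and FASN, the fatty acid synthase, by 1.09 ± 0.09. The elongase ELOVL6 went from 2622 and 2961 to 7120 and 7075, a rise of 1.35 ± 0.11. SCD, the desaturase that makes oleate, went from 45140 and 43629 to 108240 and 98258 and rose by 1.22 ± 0.10. FADS1, a desaturase of polyunsaturated fatty acids, rose by 1.11 ± 0.16 with treated levels of 16775 and 12467, and its call was lost without 3 of the 8 arrays (adjusted p as high as 0.113 without the first PLC5 control array). Of 18 genes of triglyceride synthesis and lipid droplets, 1 rose and 0 fell, with a median of -0.03. It was LPIN1, a phosphatidate phosphatase, with levels of 2160 and 2748 in the controls and 7702 and 6065 after treatment and a rise of 1.49 ± 0.17 (adjusted p = 0.00556). Of 14 genes of cholesterol efflux and trafficking limma called 0, while 4 were higher and 1 lower at an unadjusted p below 0.05, with 0.46 ± 0.10 for the lysosomal lipase LIPA (adjusted p = 0.095) and -0.31 ± 0.11 for the exporter ABCA1 (adjusted p = 0.252). Of 17 genes of fatty acid oxidation limma also called 0, with 2 higher and 1 lower at an unadjusted p below 0.05.

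**Figure D2:**
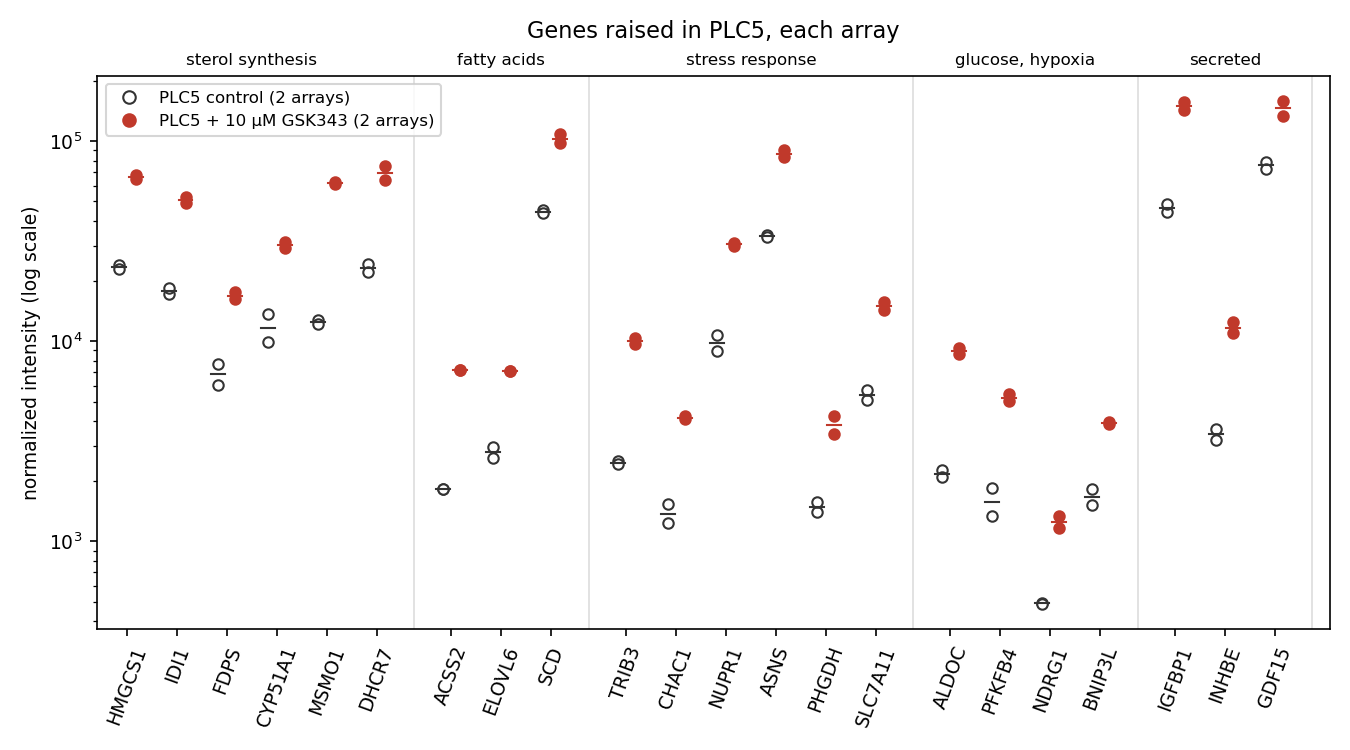
Each gene has its 2 PLC5 control arrays as open circles and its 2 treated arrays as filled circles, with the group mean as a bar, on a log axis of normalized intensity. In every gene shown both treated arrays lie above both controls, for example MSMO1 with 12844 and 12143 in the controls and 61197 and 62535 after GSK343.

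In the integrated stress response, effectors and some transcription factors rose, and 0 of the stress-sensing kinases were called. Of 20 measured sensors, transcription factors and regulators, 9 rose and 0 fell, with a median of 0.53, and 5 to 7 were called without 1 array, lowest without the second treated PLC5 array or either treated HepG2 array. Of 18 enzymes of amino acid, serine and one-carbon metabolism that ATF4 induces, 7 rose and 0 fell, with a median of 0.49, and 4 to 6 were called without 1 array, lowest without the first PLC5 control. ATF4 and its partners bind the C/EBP-ATF response element, searched here as TGATGNAA on both strands. It was found in 3 of 18 promoters of the regulators and 4 of 13 of the enzymes, or 16.7% and 30.8%, against 3.67% of all 27305 promoters in the RefSeq table of assembly GRCh38.p14 (250 bases before to 50 after the start). Of the bright genes that rose, 5.04% of 119 promoters held it, and of those that fell 2.86% of 35. The matches are descriptions and not sites of binding. The 3 called genes of the lists with a match are shown, as 100 bases on the strand of the gene with the match in capitals, since they are the members whose own promoter holds the letters of the element.
CHAC1 (chr15:40953221-40953320, + strand): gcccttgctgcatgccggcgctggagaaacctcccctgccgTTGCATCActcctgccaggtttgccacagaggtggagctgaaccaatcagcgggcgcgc
ASNS (chr7:97872423-97872522, - strand): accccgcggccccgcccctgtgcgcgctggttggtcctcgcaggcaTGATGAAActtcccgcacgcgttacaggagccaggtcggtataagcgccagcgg
ATF3 (chr1:212565170-212565269, + strand): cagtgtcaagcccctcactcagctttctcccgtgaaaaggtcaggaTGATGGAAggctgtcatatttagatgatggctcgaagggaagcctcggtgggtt
The match in CHAC1 reads as the element on the opposite strand of the gene, and those in ASNS and ATF3 on the strand of the gene. The matches began 209 bases before the start in CHAC1, 68 in ASNS and 191 in ATF3.

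Among the regulators, TRIB3, a pseudokinase that ATF4 and CHOP induce and that feeds back on them, had levels of 2516 and 2434 in the controls and 9666 and 10385 after treatment. The groups stood far apart for their spread, with a rise of 4.05-fold (2.02 ± 0.14, adjusted p = 0.00063). NUPR1, a small chromatin protein induced by stress, went from 10772 and 8986 to 30022 and 31157 and rose by 1.64 ± 0.12. CHAC1, which breaks down glutathione, went from 1233 and 1533 to 4075 and 4212 and rose by 1.59 ± 0.17 (adjusted p = 0.00336). DDIT4, an inhibitor of the growth kinase mTORC1, had 3330 and 3566 in the controls and 8671 and 8126 after treatment and rose by 1.28 ± 0.12. SESN2, another brake on mTORC1 that senses leucine, rose by 1.03 ± 0.11. The transcription factor genes ATF3, DDIT3 (CHOP), JDP2 and CEBPB rose by 0.99 ± 0.15, 0.96 ± 0.15, 0.75 ± 0.11 and 0.60 ± 0.10. Each of these 4 lost its call without at least 4 of the 8 arrays, with adjusted p reaching 0.188 for CEBPB without the first treated PLC5 array. Another probe of JDP2 gave 0.23 ± 0.23 and was not called (adjusted p = 0.716). ATF4 itself, named after its values were seen, had levels of 89626 and 63374 in the controls and 117552 and 132417 after treatment and was not called (0.73 ± 0.15, adjusted p = 0.0796). Another probe of ATF4, with mean levels of 597 in the controls and 521 after treatment, had the opposite sign (-0.20 ± 0.14, adjusted p = 0.578). The kinases that sense stress, EIF2AK1 to EIF2AK4, gave 0.02, 0.06, 0.45 and -0.17, and none was called by limma. Other probes of EIF2AK1 gave 0.28 ± 0.16 and -0.33 ± 0.14 and were not called. These kinases were also named after their values were seen. Only RNA was measured, so whether the kinases were active was not tested.

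Of the enzymes, ASNS, the asparagine synthetase, had levels of 34171 and 33338 in the controls and 83402 and 90074 after treatment. Its arrays agreed closely within groups, and it rose by 1.36 ± 0.09 (adjusted p = 0.000541). PHGDH and PSAT1, the opening enzymes of serine synthesis, rose by 1.36 ± 0.13 and 0.89 ± 0.09, PHGDH from 1406 and 1574 to 4253 and 3444 and PSAT1 from 53111 and 48225 to 90209 and 97641. ALDH1L2 and MTHFD2, folate enzymes of the mitochondrion, rose by 1.58 ± 0.18 and 0.57 ± 0.10. PCK2, the mitochondrial phosphoenolpyruvate carboxykinase, rose by 0.99 ± 0.08 (adjusted p = 0.00132), with 1.15 ± 0.09 on another probe, and GPT2, an alanine transaminase, by 0.90 ± 0.15. ALDH1L2 lost its call without the first PLC5 control array (adjusted p = 0.0528), GPT2 without 7 of the 8 arrays (at most 0.157) and MTHFD2 without each of the 8 (at most 0.188 without the first treated PLC5 array), and another probe of ALDH1L2 gave 0.85 ± 0.17 (adjusted p = 0.0743).

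Amino acid transport and charging of tRNA were raised in a few members. Of 18 amino acid transporters 3 rose and 0 fell, with a median of 0.31. SLC7A11, the cystine importer that supplies glutathione synthesis, had levels of 5075 and 5721 in the controls and 15664 and 14319 after treatment and rose by 1.47 ± 0.11 (adjusted p = 0.000664). It stayed called without each of the 8 arrays, while SLC1A4, a carrier of serine and alanine (0.93 ± 0.16), and SLC6A9, a glycine carrier (0.68 ± 0.12), lost their calls without 7 and 8 of them, with adjusted p reaching 0.166 without the second treated PLC5 array and 0.206 without the first treated PLC5 array. Another probe of SLC6A9 gave 0.30 ± 0.18 and was not called (adjusted p = 0.5). Of 19 cytosolic aminoacyl-tRNA synthetases 2 rose and 0 fell, with a median of 0.21. GARS1, for glycine, had treated levels of 15142 and 10725 against 5984 and 6371 in the controls (1.05 ± 0.17), and SARS1, for serine, rose by 0.98 ± 0.15, both with calls lost without at least 6 of the 8 arrays (adjusted p as high as 0.141 for GARS1 without the first PLC5 control array). Of 23 chaperones and sensors of the endoplasmic reticulum 2 rose and 0 fell, with a median of 0.09. HERPUD1, of protein disposal from that organelle, rose by 0.63 ± 0.10 and DNAJB9, a co-chaperone, by 0.60 ± 0.10. The call of HERPUD1 was lost without 7 of the 8 arrays (adjusted p as high as 0.144 without the first treated PLC5 array) and that of DNAJB9 without each of them (at most 0.161 without the first treated PLC5 array). The main chaperone gene HSPA5, named after its values were seen, gave 0.04 ± 0.13 (adjusted p = 0.924).

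Glucose metabolism and targets of the hypoxia response rose in part. The gene of the hypoxia factor, HIF1A, gave -0.14 ± 0.19 (adjusted p = 0.804) and was named after its values were seen. Another probe of HIF1A gave 0.15 ± 0.21 and was not called (adjusted p = 0.802). Of 24 measured glycolysis genes, 5 rose and 0 fell, with a median of 0.25, and 2 to 4 were called without 1 array, lowest without the first control or the first treated PLC5 array. ALDOC, an aldolase, had levels of 2267 and 2092 in the controls and 8614 and 9216 after treatment. This was a 4.09-fold rise (2.03 ± 0.12, adjusted p = 0.000515), with 2.13 ± 0.13 on another probe. PFKFB4, a bifunctional enzyme that sets the level of an activator of phosphofructokinase, went from 1348 and 1850 to 5045 and 5442 and rose by 1.73 ± 0.18. HK2, the hexokinase of growing cells, had 2473 and 1941 in the controls and 7126 and 4638 after treatment, and its rise of 1.39 ± 0.21 lost the call without 5 of the 8 arrays (adjusted p as high as 0.107 without the second PLC5 control array). PDK1, the kinase that shuts pyruvate out of the citric acid cycle, rose by 0.86 ± 0.12, and GAPDH by 0.68 ± 0.12. The call of PDK1 was lost without 3 arrays (adjusted p as high as 0.0838 without the second treated PLC5 array) and that of GAPDH without each of the 8 (at most 0.221). Of 12 genes of gluconeogenesis and glycogen 1 rose and 0 fell, namely PPP1R3C, a glycogen-targeting subunit of a phosphatase, by 0.93 ± 0.14, a call lost without 5 arrays (at most 0.128 without the first treated PLC5 array).

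Outside glycolysis, 10 of 25 measured hypoxia targets rose and 0 fell, with a median of 0.54, and 3 to 7 were called without 1 array, lowest without the first treated PLC5 array, and 2 with no variance trend. NDRG1, a widely used hypoxia marker, had levels of 495 and 487 in the controls and 1173 and 1334 after treatment and rose by 1.35 ± 0.12 (adjusted p = 0.00133). STC2, a secreted glycoprotein that stress also induces, went from 3914 and 3042 to 8328 and 9263 and rose by 1.35 ± 0.15. BNIP3L and BNIP3, receptors for the removal of mitochondria, rose by 1.23 ± 0.14 and 0.85 ± 0.14. ANKRD37, a compact hypoxia target, rose by 1.16 ± 0.17 and BHLHE40, a repressor that also damps the circadian clock, by 0.93 ± 0.13. Calls were lost for BNIP3L without the first treated PLC5 array (adjusted p = 0.0548), for ANKRD37 and BHLHE40 without 4 arrays (at most 0.138 and 0.125) and for BNIP3 without 7 (at most 0.164). The lists of hypoxia and of stress share DDIT4, and INSIG2 stands in the lists of hypoxia and of SREBP control.

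Secreted factors of the liver were among the largest rises. Of 13 measured activins, follistatins and stress hepatokines, 4 rose and 0 fell, with a median of 0.29. The 4 included STC2, which was also counted among the hypoxia targets above. Of the list 3 or 4 genes were called without 1 array and 1 with no variance trend. INHBE, a liver activin subunit, had levels of 3223 and 3663 in the controls and 12421 and 11029 after treatment and rose by 1.77 ± 0.17 (adjusted p = 0.00207). GDF15, a stress hormone that acts on the brainstem to curb appetite, went from 79152 and 72530 to 133716 and 158959. Its controls agreed closely, and the rise was 0.94 ± 0.11 (adjusted p = 0.0052). FST, the follistatin that binds activins, rose by 0.68 ± 0.11, a call lost without 7 of the 8 arrays (at most 0.17 without the first treated PLC5 array), and another probe gave 0.43 ± 0.15 and was not called (adjusted p = 0.232). IGFBP1, a binding protein of insulin-like growth factors that FOXO1, ATF4 and hypoxia can each induce, had 44510 and 48362 in the controls and 143913 and 156300 after treatment. This was a 3.23-fold rise (1.69 ± 0.09, adjusted p = 0.000264), and IGFBP1 was the only 1 of 22 measured genes of insulin signalling and FOXO targets to be called.

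Of the other large rises, CYP1A1, the classical target of the aryl hydrocarbon receptor, had levels of 5643 and 5137 in the controls and 17744 and 18600 after treatment. It rose by 1.75 ± 0.13 (adjusted p = 0.000664), alone among 22 measured cytochrome P450 genes outside sterol synthesis. ULBP1, a ligand that marks stressed cells for natural killer cells through the receptor NKG2D, went from 166 and 166 to 719 and 579 and rose by 1.96 ± 0.17. Another probe of ULBP1 gave 0.57 ± 0.25 and was not called (adjusted p = 0.349). MICB, a ligand of the same receptor, rose by 0.69 ± 0.11 (adjusted p = 0.0282), was named after its values were seen and lost its call without 7 of the 8 arrays (at most 0.145 without the first treated PLC5 array). IL21R, a cytokine receptor gene, went from 84.2 and 95.1 to 306 and 250.2, low levels in all 4 arrays, and rose by 1.63 ± 0.16. The antisense transcript SNAI3-AS1 rose by 1.69 ± 0.15, from 192 and 226 to 668 and 671. HMOX1, the haem oxygenase, rose by 0.76 ± 0.11, and with SLC7A11 it made 2 of 23 measured NRF2 targets higher and 0 lower, although its call was lost without 4 arrays (adjusted p as high as 0.0929 without the second treated PLC5 array). TUBA1A, an alpha tubulin, rose by 1.04 ± 0.14, the only 1 of 14 tubulins called, and lost the call without 3 arrays (at most 0.0925 without the first treated PLC5 array).

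A pair of cell cycle brakes rose, while genes of the machinery of division were mostly lower without passing the test one by one. CDKN1A, the inhibitor of cyclin-dependent kinases that p53 and stress induce, had levels of 1415 and 1202 in the controls and 3139 and 2980 after treatment and rose by 1.23 ± 0.12 (adjusted p = 0.00196). CCNG2, an unusual cyclin linked to arrest, went from 454 and 541 to 1499 and 1636 and rose by 1.66 ± 0.13, while another probe gave 0.70 ± 0.16 (adjusted p = 0.0987). These were the 2 of 18 measured cyclins and inhibitors that were called. Of 25 measured p53 targets 4 rose and 0 fell, with a median of 0.12, and all 4 stayed called without each of the 8 arrays. Besides CDKN1A, GDF15 and SESN2 the group held TP53INP1, which acts in autophagy and cell death and rose by 0.90 ± 0.10 (adjusted p = 0.00346). GDF15 also stands in the list of hepatokines, SESN2 in that of the stress response and TP53INP1 in that of autophagy. MDM2 and BAX, textbook p53 targets named after their values were seen, gave 0.05 ± 0.13 (adjusted p = 0.894) and 0.01 ± 0.15 (adjusted p = 0.981). Of 18 BCL2 family genes 3 rose and 0 fell, with a median of 0.20. They were BNIP3L, BNIP3 and BMF, a pro-apoptotic sensor of the cytoskeleton, which went from 563 and 530.4 to 1053 and 1037 (0.94 ± 0.12) and lost its call without 3 arrays (adjusted p as high as 0.0752 without the first treated PLC5 array).

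Of 46 measured DNA replication genes 0 rose and 2 fell, but 36 had both treated arrays below both controls, against 22.8% of all genes, and the median was -0.33. Of 46 mitosis genes 0 rose and 1 fell, 34 had both treated arrays below both controls, and the median was -0.32. For 23 DNA repair genes limma called 0, with 0 higher and 13 lower at an unadjusted p below 0.05 and a median of -0.31. Ribosome biogenesis gave the same count of 0 calls among 33 genes, with 0 higher and 16 lower at an unadjusted p below 0.05 and a median of -0.30. With each array centred on its median, 10 genes of replication, 9 of mitosis, 3 of repair and 6 of ribosome biogenesis were called. PCNA, the sliding clamp of DNA polymerase, had levels of 53744 and 54686 in the controls and 37841 and 36343 after treatment and fell by 0.55 ± 0.10 (adjusted p = 0.0428). E2F8, a repressor of the E2F family that peaks in S phase, fell by 0.82 ± 0.13, and MKI67, the proliferation marker, by 0.80 ± 0.13, from 9380 and 10823 to 5278 and 6356. None of these 3 calls was stable, since PCNA and E2F8 lost theirs without each of the 8 arrays and MKI67 without 7 (adjusted p as high as 0.166, 0.137 and 0.148). In contrast to biogenesis, the 38 measured ribosomal proteins had a median of 0.04, which changed sign against all genes under other scalings, and limma called 0 of them, with 2 higher and 3 lower at an unadjusted p below 0.05. In bulk RNA a smaller share of cells in cycle and less RNA per cell cannot be told apart.

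**Figure D3:**
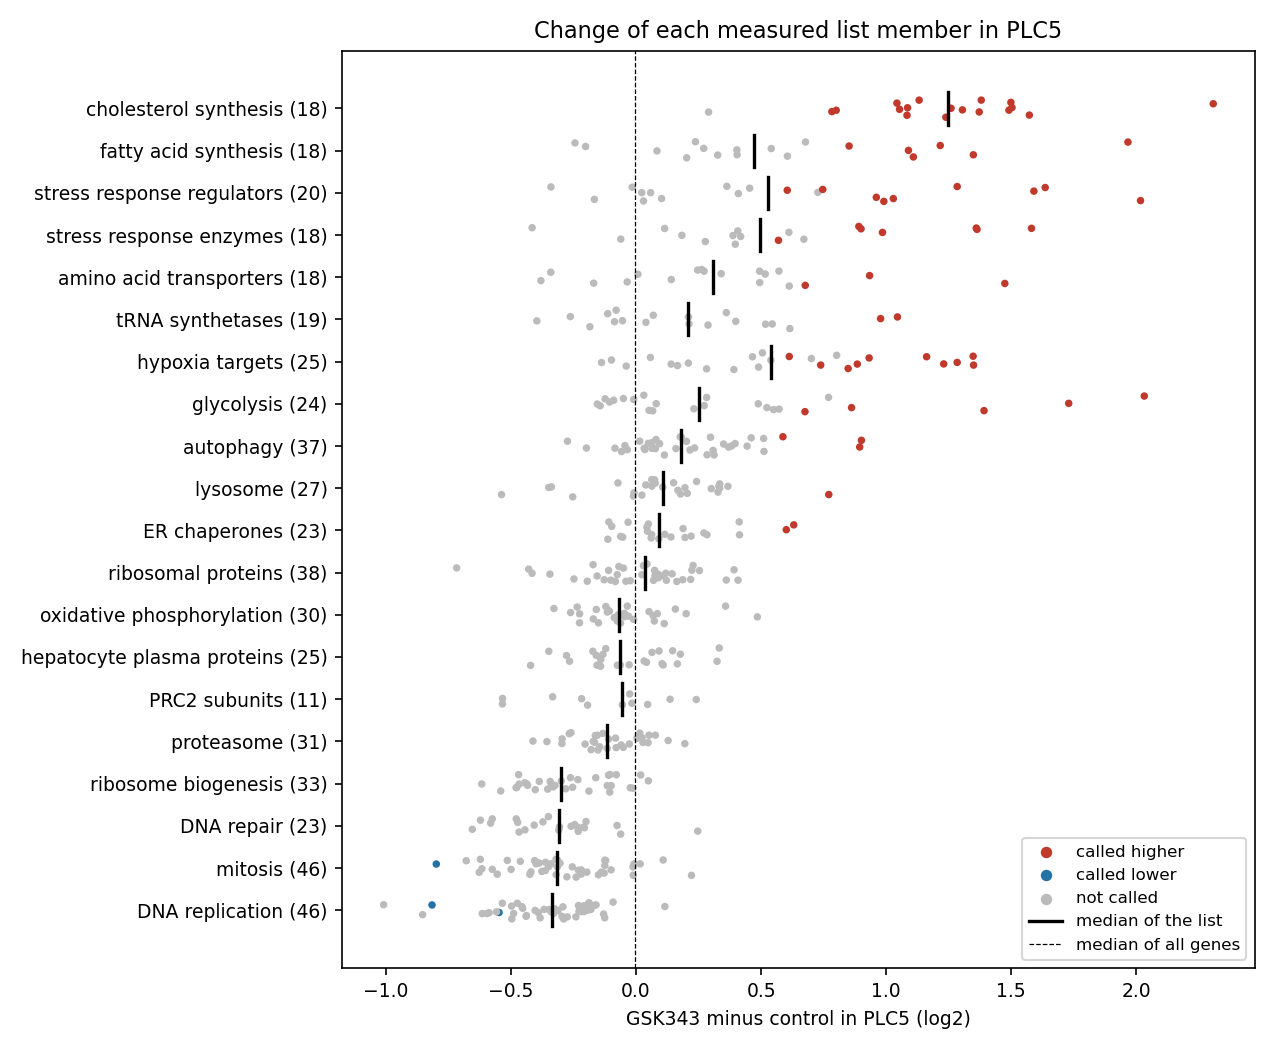
Each point is 1 measured gene of a list (number of genes in parentheses), with its log2 difference in PLC5, GSK343 minus control, on the horizontal axis, and the black bar is the median of the list. Cholesterol synthesis has its median at 1.25, whereas replication, mitosis, DNA repair and ribosome biogenesis have medians from -0.33 to -0.30 with few called members.

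Autophagy and lysosome genes moved little one by one. Of 37 measured autophagy genes 3 rose and 0 fell, and 22 had both treated arrays above both controls against 22.8% of all genes, with a median of 0.18. Besides TP53INP1 these were WIPI1, which acts at forming autophagosomes, with levels of 5805 and 6194 and 10600 and 11722 and a rise of 0.89 ± 0.11, and SQSTM1, the cargo receptor p62, with a rise of 0.59 ± 0.09. WIPI1 lost its call without 2 arrays (adjusted p as high as 0.0705 without the second treated PLC5 array) and SQSTM1 without each of the 8 (at most 0.125). Of 27 lysosome genes 1 rose and 0 fell, with a median of 0.11. It was the sialidase NEU1 (0.77 ± 0.13), whose call was lost without 7 arrays (at most 0.147 without the first PLC5 control array). The CLEAR element TCACGTGA, which TFEB binds, was found in 5 of 17 promoters of the lysosome genes, 29.4% against 1.04% of all, and 0 of those 5 genes were called.

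The falls held fewer genes and no list in which most members were called. UBD, a ubiquitin-like modifier that inflammatory cytokines induce, had levels of 53521 and 57902 in the controls and 19834 and 21510 after treatment. The groups were far apart, with a 2.69-fold fall (-1.43 ± 0.09 in log2, adjusted p = 0.000562). Of 32 measured NF-kB targets and cytokines 3 fell and 0 rose, and the median was -0.31. Both treated arrays lay below both controls in 22 of the 32, against 22.8% of all genes. CXCL1, a chemokine for neutrophils, went from 88690 and 102518 to 49918 and 54294 and fell by 0.87 ± 0.12, with -0.92 ± 0.12 on another probe. VCAM1, an adhesion molecule for leukocytes, fell by 0.86 ± 0.16, from 10510 and 9908 to 5300 and 5991. CXCL1 lost its call without 3 arrays (adjusted p as high as 0.126 without the first treated PLC5 array) and VCAM1 without each of the 8 (at most 0.22), while UBD kept its call each time.

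HOXA3, HOXA4 and HOXA5, transcription factor genes that lie side by side in the HOXA cluster and set position along the body axis, fell together. HOXA3 had levels of 5019 and 4850 in the controls and 2266 and 2200 after treatment, HOXA4 went from 8297 and 7019 to 3292 and 2953, and HOXA5 from 3454 and 4001 to 1459 and 1462. No array of 1 group reached the other group in any of them, and they fell by 1.14 ± 0.11, 1.29 ± 0.13 and 1.35 ± 0.13 (adjusted p = 0.00184, 0.00217 and 0.00176). All 3 stayed called without each of the 8 arrays. Another probe of HOXA5 gave -1.43 ± 0.15, but another probe of HOXA3 gave -0.39 ± 0.16 and was not called (adjusted p = 0.304). They were the only called genes among 38 measured HOX genes, whose median was 0.01. Of their neighbours in the cluster, named after their values were seen, HOXA2 gave -0.67 ± 0.19 (adjusted p = 0.158), HOXA6 0.14 ± 0.24 (adjusted p = 0.852) and HOXA7 -0.04 ± 0.16 (adjusted p = 0.951).

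Further falls were spread over vessel, matrix, liver and clock genes. LRP12, a receptor of the lipoprotein receptor family, went from 1605 and 1760 to 692 and 755, fell by 1.22 ± 0.13 (adjusted p = 0.00438) and stayed called without each array. EDN1, the vasoconstrictor endothelin, had levels of 7459 and 9392 in the controls and 3382 and 4058 after treatment and fell by 1.18 ± 0.19. THBS1 and TAGLN, a matrix protein and an actin-binding protein that SRF and TGF-beta induce, fell by 0.88 ± 0.12 and 0.88 ± 0.14 and were the 2 called of 24 measured genes of epithelial and mesenchymal state. ADH1C and ADH6, alcohol dehydrogenases of liver, fell by 1.31 ± 0.21 and 0.67 ± 0.11, ADH1C from 383 and 294 to 135 and 136. FOXA1, a pioneer factor of liver chromatin, fell by 0.81 ± 0.12, while CEBPB was the other gene called among 17 liver-enriched factors and rose. PER2, of the negative arm of the clock, fell by 0.82 ± 0.12, next to the rise of BHLHE40 among 18 clock genes. POLQ, a polymerase of end-joining repair, fell by 0.89 ± 0.15, CDCA7, a MYC and E2F target, by 0.71 ± 0.13, MARS2, the mitochondrial synthetase for methionine, by 0.87 ± 0.16, MIDN by 0.89 ± 0.15 and the keratin-associated KRTAP3-1 by 1.10 ± 0.17. Apart from LRP12, each gene named in the present paragraph lost its call without at least 4 of the 8 arrays, with adjusted p from 0.0938 for THBS1 without the first treated PLC5 array to 0.205 for CDCA7 without the first treated PLC5 array as the highest value of each gene.

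**Figure D4:**
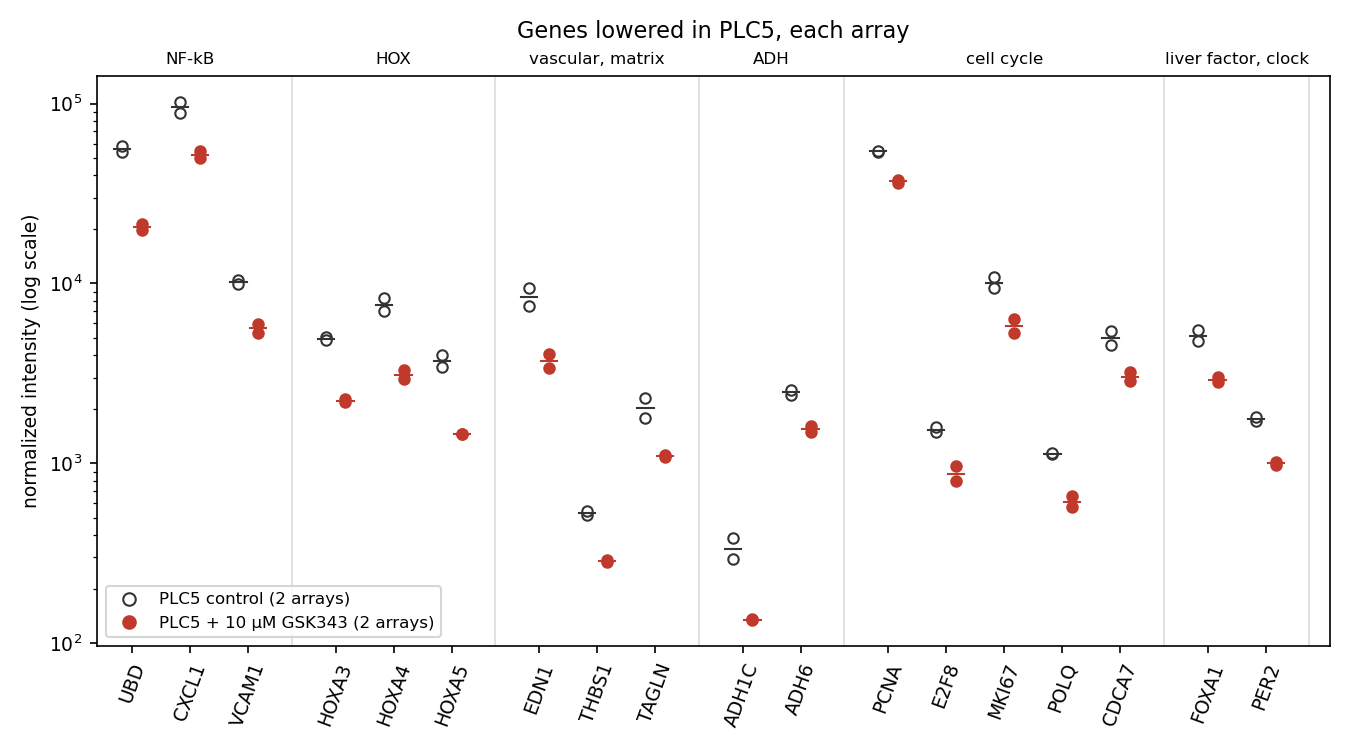
Each gene has its 2 PLC5 control arrays as open circles and its 2 treated arrays as filled circles, with the group mean as a bar, on a log axis of normalized intensity. In every gene shown both treated arrays lie below both controls, with UBD at 53521 and 57902 against 19834 and 21510, and ADH stands for alcohol dehydrogenases.

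The target complex itself was not called, except in part under 2 of 21 alternatives. EZH2 had levels of 7022 and 7465 in the controls and 4790 and 5218 after treatment, so both treated arrays lay below both controls, and the difference was -0.53 ± 0.11 (adjusted p = 0.081). EZH1, the enzyme that can stand in for EZH2, gave -0.05 ± 0.16 (adjusted p = 0.923), with overlapping groups. The core subunits EED and SUZ12 gave -0.33 ± 0.15 (adjusted p = 0.353) and -0.02 ± 0.12 (adjusted p = 0.972). Another probe of EED gave -0.63 ± 0.26 and was not called (adjusted p = 0.308). Limma called 0 of 11 measured PRC2 subunits, with 0 higher and 2 lower at an unadjusted p below 0.05 and a median of -0.05, the lower ones being EZH2 and PHF19, an accessory subunit (-0.53 ± 0.14, adjusted p = 0.139). With each array centred on its median 2 subunits were called, EZH2 at -0.69 (adjusted p = 0.0298) and PHF19 at -0.70 (adjusted p = 0.0435). With the dimmest 50% of probes left out only EZH2 was called (adjusted p = 0.0446). Under the other alternatives EZH2 was not called, and its lowest adjusted p there was 0.0514. For 14 subunits of PRC1, which binds the PRC2 mark, 0 were called and 0 were higher or lower at an unadjusted p below 0.05. Of 26 other histone lysine methyltransferases and demethylases limma called 0, with 2 higher and 8 lower at an unadjusted p below 0.05. Of 26 measured genes reported as silenced by EZH2, 2 rose and 1 fell, with a median of 0.07 against -0.01 over all genes. The rises were CCNG2 and BMF, and the fall was TIMP3, an inhibitor of matrix proteases, whose probe was dim with levels of 42.9 and 35.2 in the controls and 18.1 and 21.2 after treatment. TIMP3 lost its call without 5 of the 8 arrays (adjusted p as high as 0.128 without the first treated PLC5 array) and kept it under 8 of 21 alternatives, and with a floor of 64 its change was 0. CDKN1C, a cell cycle inhibitor of that list named after its values were seen, gave 1.12 ± 0.28 (adjusted p = 0.116) from levels of 230.2 and 231 and 492 and 508. CDKN2A gave 0.07 ± 0.17 (adjusted p = 0.9) and was also named after its values were seen.

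Several groups showed few or no calls. Of all genes only 0.834% rose and 0.235% fell, so 0 calls in a list of this size, here or above, is no result about its genes. At an unadjusted p below 0.05, 1444 of all 18336 genes were higher and 1504 lower. Among 32 immediate early genes 1 rose and 0 fell, with a median of 0.23, namely DUSP6, a phosphatase of the kinase ERK (0.73 ± 0.13), a call lost without each of the 8 arrays (adjusted p as high as 0.197 without the first treated PLC5 array). Limma called 0 of 30 subunits of oxidative phosphorylation (2 higher and 2 lower at an unadjusted p below 0.05), 0 of 31 proteasome genes (0 higher and 4 lower) and 0 of 23 interferon-stimulated genes (4 higher and 0 lower). It also called 0 of 9 metallothioneins (1 higher and 0 lower), 0 of 20 Wnt targets (1 higher and 4 lower) and 0 of 24 receptor tyrosine kinases (3 higher and 1 lower). Plasma proteins of the hepatocyte gave 0 calls in 25 genes, with 1 higher and 2 lower at an unadjusted p below 0.05, and FGB, a fibrinogen chain, had -0.42 ± 0.09 (adjusted p = 0.0886). ISG15, a ubiquitin-like interferon target, had 0.60 ± 0.13 (adjusted p = 0.0825) and RNF43, a brake on Wnt receptors, -0.53 ± 0.10 (adjusted p = 0.0639).

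The response was compared with that of HepG2 to the same dose. Each line has its own controls, while the spread of a probe was estimated once over both lines. In HepG2 981 genes were called higher and 633 lower, or 5.35% and 3.45% of the genes measured. Of the 153 genes that rose in PLC5, 79 were also called higher in HepG2, and of the 43 that fell 5 were also called lower there. The difference of the changes, PLC5 minus HepG2, was called for 154 genes, 0.84% of those tested, and 33 of these were also called in PLC5. Among bright genes 29 were called in both tests, and 5 of the bright genes called in PLC5 were called in the opposite direction in HepG2, namely IGFBP1, GDF15, PDK1, FST and HOXA3.

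Of the bright genes called in both tests, IGFBP1 had the largest difference. Against its rise in PLC5, the HepG2 levels were 32790 and 31416 in the controls and 22269 and 22712 after treatment, a fall of 0.51 ± 0.09 (adjusted p = 0.0155), and the difference was 2.21 ± 0.13 (adjusted p = 0.000398). GDF15 gave -0.55 ± 0.11 in HepG2 and a difference of 1.49 ± 0.15 (adjusted p = 0.00833), and PDK1 gave -0.60 ± 0.12 and 1.46 ± 0.16 (adjusted p = 0.0118). INSIG2 was higher in PLC5 and gave -0.45 ± 0.13 in HepG2, with a difference of 1.33 ± 0.19 (adjusted p = 0.0311). HOXA3 had HepG2 levels of 1384 and 1390 in the controls and 2072 and 1976 after treatment, a rise of 0.55 ± 0.11 there, and the difference was -1.69 ± 0.15 (adjusted p = 0.00494). HOXA4 and HOXA5 gave -0.08 ± 0.13 and -0.08 ± 0.13 in HepG2, with differences of -1.21 ± 0.18 and -1.27 ± 0.18. ALDOC rose in both lines, by less in HepG2 (0.69 ± 0.12), and its difference of 1.34 ± 0.17 was called (adjusted p = 0.025). CDKN1A and NDRG1 gave 0.05 ± 0.12 and 0.15 ± 0.12 in HepG2, with differences of 1.18 ± 0.17 and 1.20 ± 0.17 (adjusted p = 0.0311 and 0.0311). On the other side CDCA7 and ADH6 had differences of -1.04 ± 0.18 and -0.91 ± 0.16 (adjusted p = 0.0487 and 0.0487). The number of differences called was 22 to 82 without 1 array, lowest without the second treated HepG2 array, so single genes here rest on few degrees of freedom.

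By lists, 5 of 24 glycolysis genes had a called difference, all with the higher change in PLC5. In the whole list 5 rose in PLC5, while 3 rose and 7 fell in HepG2. Of the genes that differed, ALDOC and PDK1 rose in PLC5. SLC2A1, SLC2A3 and PFKP, named after their values were seen, were not called there. In HepG2 they gave -1.16 ± 0.16, -1.58 ± 0.10 and -1.28 ± 0.15. Of 25 hypoxia targets 4 differed, all with the higher change in PLC5. Of 32 immediate early genes 4 differed, also with the higher change in PLC5, and 0 were called higher and 11 lower in HepG2. AXL, a receptor tyrosine kinase, differed by 1.99 ± 0.19 (adjusted p = 0.00664), with 0.57 ± 0.14 in PLC5, where it was not called, and -1.43 ± 0.14 in HepG2. For cholesterol synthesis the medians were 1.25 in PLC5 and 1.29 in HepG2, with 0 of 18 differences called by limma. This does not show equal change of each enzyme, as given above for MSMO1.

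**Figure D5:**
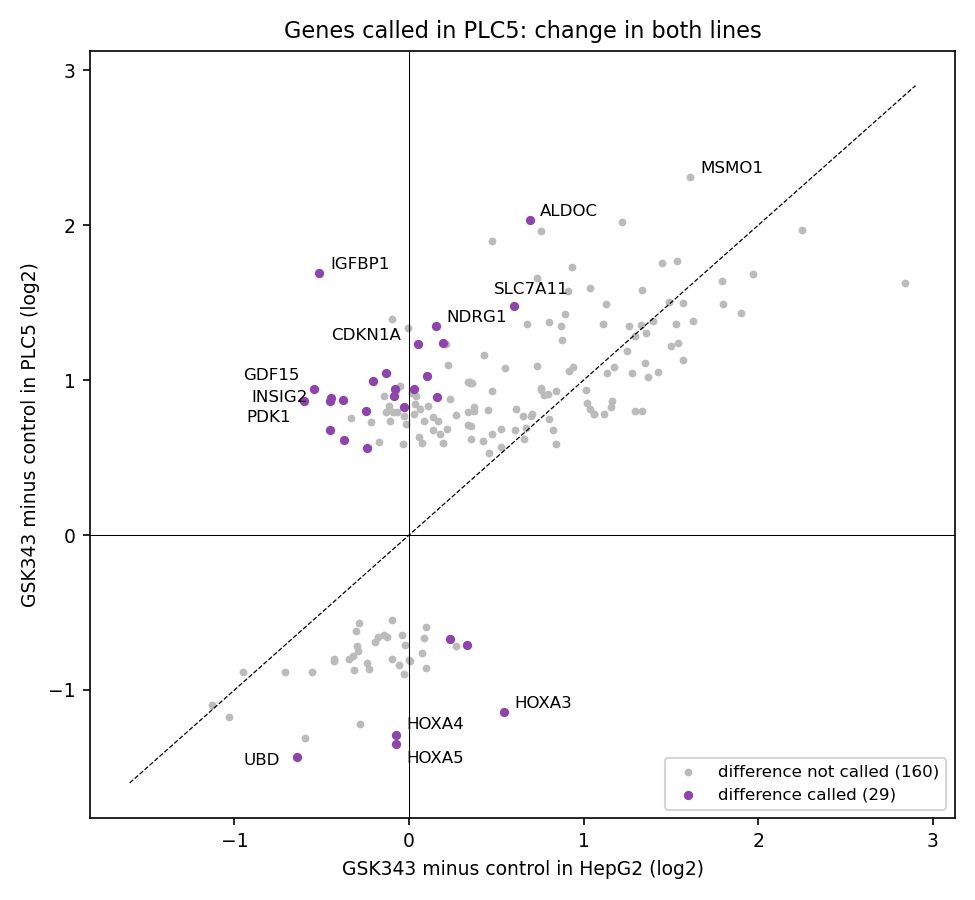
Each point is 1 of the 189 bright genes called in PLC5, with the log2 difference in HepG2 on the horizontal axis and in PLC5 on the vertical axis, the dashed line marking equal change. Purple points are the 29 genes whose difference between the lines was called, with IGFBP1 at -0.51 and 1.69, and the gap around 0 on the vertical axis is there because only called genes are shown.

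Of the 196 called genes 7 had a group below the level of 64. C2orf69 had levels of 1 and 3 in the controls and 4976 and 7006 after treatment, KIF15 had 17.5 and 1.12 and 1539 and 1582, and PTPA had 10.4 and 15.4 and 2780 and 2465. Each control array of these 3 probes lay near the floor, so no fold is given. In HepG2 the same PTPA probe went the other way, from 2784 and 2964 to 1 and 7.62, and those of C2orf69 and KIF15 stayed high in all 4 arrays, with 9132 and 8795 and 4075 and 4277 in the controls. SLC12A5 went from 14.9 and 19.4 to 2 and 2.25, below 64 throughout, and its call was lost without 7 of the 8 arrays (adjusted p as high as 0.122 without the second PLC5 control array). These dim probes were left out of the accounts above, except TIMP3.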

How the data were processed

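Per the labels' protocols, total RNA was copied to amino-allyl antisense RNA, which was labelled with Cy5 and put on 8 single-colour arrays, 2 per group. The deposited values were linear intensity values of 31741 probes, whole numbers of which some were negative or 0, which points to a subtracted background, and array medians differed, so the arrays had not been scaled to each other. Not given in the sources used here were the scanner software and detection calls. Values at or below 1 made up 0% and 6.35% of the PLC5 controls and 1.27% and 0.0126% of the treated PLC5 arrays.

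The 8 arrays were quantile normalized together, values below 1 were set to 1, and log2 was taken. All 8 arrays entered 1 fit of group means with limma's lmFit and eBayes with a trend (limma 3.58.1 in R 4.3.3), with 4 residual and 4.75 prior degrees of freedom. Two-sided p-values were adjusted over all probes by the Benjamini-Hochberg method. The platform annotation paired 24740 probes with 1 symbol, 977 with several and 6024 with none. Of the 1-symbol probes, 22722 carried a symbol that is current in the RefSeq table of GRCh38.p14, 1953 an older name that was updated, and 65 a name kept without a match. The brightest 1-symbol probe, by its mean over all arrays, stood for each of 18336 genes, 5455 of which had further probes.

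The members, gene lists and tests were chosen with earlier results of these data known, so the lists are described by counts and medians and not tested. Named by rule were, among bright genes, the 15 largest rises and falls with agreeing probes, the 5 largest differences between the lines on each side, EZH2, EZH1, EED and SUZ12, and of each list up to 8 called members, or with none called the 2 with the smallest p. Of dim called genes up to 3 on each side were named. Not every gene so chosen is printed, and names outside the rule are marked. On simulated arrays with PLC5 treated against control, 6 of 50 probes changed by 0.5 (log2) were called, as were 37 of those changed by 1, 49 by 1.5 and 50 by 2, while 10 of 152 calls fell on probes with no change. The simulated noise was normal and independent between arrays, with each probe's fitted spread, and only bright probes were changed. Departures of the real arrays from these settings were not simulated, so the false calls are no error rate of the real calls. The 2 arrays per group limit the precision. Alternatives were other scalings, filters on dim probes, floors and variance models, PLC5 arrays alone, a replicate block, a fold threshold, each gene's median over its probes, and leaving out each array. Replicate numbers are shared between the groups by the labels. The deviations of same-numbered arrays correlated with r = 0.012 in PLC5 and -0.124 in HepG2, so they were not taken as pairs.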

Additional observations from a re-analysis of the deposited data

Results flagged for a closer look

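The difference of the change between the lines, PLC5 minus HepG2 by limma's test of the difference itself, was called for 33 genes that were also called in PLC5. All values are differences of log2 changes, and no explanation was tested. Of the amino acid and stress genes, ATF3 differed by 1.20, SESN2 by 0.92, SLC7A11 by 0.87 and PSAT1 by 0.73. Of glucose and hypoxia genes, PDK1 differed by 1.46, ALDOC by 1.34, INSIG2 by 1.33, NDRG1 by 1.20 and PLOD2, a collagen hydroxylase, by 0.99. The secreted factors IGFBP1, GDF15 and FST differed by 2.21, 1.49 and 1.13.

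The cell cycle inhibitor CDKN1A differed by 1.18, the tubulin TUBA1A by 1.18, the autophagy gene WIPI1 by 0.98 and the neuronal adaptor gene DPYSL2 by 1.04. In signalling genes, RHEBL1 differed by 1.32, the kinase FYN by 1.25, RGS3 by 1.02 and SH2D5 by 0.91. Among metabolic enzymes the values were 1.04 for the arginase ARG2, 0.86 for AACS, which activates acetoacetate, and 0.81 for FPGS, which retains folates. On the other side HOXA3 had -1.69, HOXA5 -1.27, HOXA4 -1.21, CDCA7 -1.04, ADH6 -0.91 and UBD -0.79. The fitted differences of the dim probes were 17.72 for PTPA, 11.73 for C2orf69, 8.62 for KIF15 and -3.88 for SLC12A5, which depend on the floor and are no bounds.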

How the results depend on the processing

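The 196 calls of PLC5 kept their direction under every alternative in which they were tested, except that 2 of them were at 0 with a floor of 64. Fewer genes were called with no normalization (103, bright 100), no variance trend (57, bright 48, difference 13), the PLC5 arrays alone (75, bright 71) and a log2 change of at least 1 (74, bright 68). More were called with median centring (309, bright 306, but difference 71), with the dimmest 50% of probes left out (347, bright 343) and with each gene's probes summarised by their median (bright 284, difference 233). The difference rose to 271 with a floor of 64 and to 255 with robust eBayes. The replicate block, which pairs arrays by number only, gave 65 genes, bright 61 and difference 9, where same-numbered arrays did not deviate together. Leaving out 1 array gave 81 to 112 genes, 73 to 105 bright and 22 to 82 for the difference. The fit with fewer probes adjusts over fewer tests, and the fits without an array, with PLC5 alone or with the block have fewer residual degrees of freedom. Why the counts changed was not tested for these or the other settings. No normalization moved the median of all genes to 0.10 (log2). Of 99 named called genes, 36 were called under each of the 21 alternatives that tested them and 47 without each of the 8 arrays.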

Other observations

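Further called genes that no list held were named after their values were seen. In lipid and glucose metabolism, VLDLR, a receptor of triglyceride-rich lipoproteins, rose by 1.35 ± 0.19, from 417 and 391 to 1081 and 987. MLXIPL, the carbohydrate response factor ChREBP, rose by 0.95 ± 0.12, PFKFB2, a relative of PFKFB4, by 1.08 ± 0.15 and PPP1R3G, a glycogen-targeting subunit, by 1.10 ± 0.19. ERG28, a scaffold of sterol demethylation, rose by 1.02 ± 0.09 (adjusted p = 0.00166), and AACS, which turns acetoacetate into a precursor of sterols, by 0.83 ± 0.10. MMAB, a cobalamin enzyme whose gene shares a promoter with that of MVK, rose by 0.78 ± 0.14. FABP1, the fatty acid carrier of hepatocytes, rose by 0.53 ± 0.08, from 27004 and 27151 to 37506 and 40600. ERG28 and AACS stayed called without each of the 8 arrays, and the others lost their calls without at least 2, with a highest adjusted p from 0.0908 for MLXIPL without the first treated PLC5 array to 0.188 for PPP1R3G without the first treated PLC5 array. One other probe of PFKFB2 gave 0.39 ± 0.18 and was not called (adjusted p = 0.379).

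Among the falls outside the lists were genes of growth and RNA handling. SKP2, a ubiquitin ligase subunit that removes cell cycle inhibitors, fell by 0.57 ± 0.10, PCLAF, a partner of PCNA, by 0.60 ± 0.11 and TACC3, of the mitotic spindle, by 0.71 ± 0.11. MIR17HG, the host transcript of a cluster of growth-promoting miRNAs, went from 1506 and 1623 to 797 and 1011 and fell by 0.80 ± 0.15. The splicing genes SF3A1 and SRRM2 fell by 0.69 ± 0.11 and 0.66 ± 0.10. Each of these falls lost its call without at least 6 of the 8 arrays, with a highest adjusted p from 0.126 for TACC3 to 0.206 for SKP2, both without the first treated PLC5 array. Another probe of PCLAF gave -0.16 ± 0.10 and was not called (adjusted p = 0.495).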
